A study of Homo sapiens with 20 samples.

Results

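TNFAIP3 encodes A20, an inhibitor of NF-κB signalling, and its transcript was followed in U2-OS cells together with those of 6 genes whose products work with A20 or beside it on ubiquitin chains: TNIP1, TNIP2, TAX1BP1, ITCH, RNF11 and CYLD. The 7 genes were taken by symbol from the deposited table of read counts, a choice made with earlier results of these data known. Each symbol matched 1 of the 20314 genes in the table, and all 7 were among the 14992 genes with enough counts to be tested.

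NF-κB is held in the cytoplasm by IκB proteins and is set free when the IκB kinase complex, IKK, marks them for degradation. Receptors and DNA damage signals activate IKK through ubiquitin chains that act as scaffolds for the kinases. A20 edits and binds such chains, the A20-binding proteins encoded by TNIP1 and TNIP2 bring it to them, TAX1BP1, ITCH and RNF11 form a ubiquitin-editing complex with A20, and CYLD cuts the chains on its own. TNFAIP3 and NFKBIA, the gene of IκBα, are both well known targets of NF-κB, so that each works as a negative feedback.

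U2-OS is an established human osteosarcoma cell line. mRNA was sequenced from 4 groups of 5 libraries: untreated cells, cells harvested 1.5 h after a single dose of 20 Gy of ionizing radiation (IR; 90 minutes in the labels), cells harvested 7 days after the same dose, and cells that were not irradiated but carried an NFKBIA-directed shRNA. The study placed the 2 times in a first and a second phase of NF-κB activity, and the knockdown asked what the loss of IκBα does without damage. According to the study's description the knockdown cells carried a Dox-inducible shRNA vector, in clones selected with puromycin, and were given Dox beforehand. The methods name Dox-treated cells with scrambled shRNAs as controls of knockdown in general, but the labels call the control libraries of this series only untreated. Knockdown of NFKBIA and the handling that goes with an shRNA therefore cannot be told apart. The labels number 5 replicates in each group, which the study describes as biological for untreated and irradiated cells. Neither names separate cultures for the knockdown, and p values measure the spread between these libraries.

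The libraries held 22535659 to 40390961 counts. Untreated replicate 5 stood apart: it was the smallest library, its correlation with the other untreated libraries was 0.970 to 0.981 where all other pairs within a group reached at least 0.988, and it held the highest or lowest value of its group for 73.0% of genes. It was also the only untreated library whose labels name a sequencing lane shared with another group. Differences of the members from untreated cells that passed the test are therefore given with and without it. Of 9 osteoblast and osteosarcoma markers, RUNX2, COL1A1, SPARC, ALPL and SPP1 had mean levels above 1 CPM (the count scaled to a common library depth) in every group, while SP7, COL1A2 and IBSP were below that level. Their summed level was 4000 to 4750 CPM in untreated libraries, 3680 to 3990 at 1.5 h, 2760 to 3180 at 7 days and 2800 to 2970 in the knockdown. The summed level of 5 leukocyte markers was 2.74 to 9.18 CPM in untreated libraries, 2.90 to 3.49 CPM at 1.5 h, 2.80 to 3.71 CPM in the knockdown and 23.1 to 27.9 CPM at 7 days, where CD68, a lysosomal protein gene, made up most of it. CD68 was at 6.28 CPM in untreated replicate 5. The relation of these levels to the values below was not tested.

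Promoter sequences are shown for the 3 members in which a search of the bases in front of the RefSeq start sites matched the κB consensus, the site to which NF-κB binds. Each window holds the 250 bases before a start site, in GRCh38.p14, written on the strand of the gene from 5′ to 3′, with the matches in capitals. The TNFAIP3 window lies at chr6:137867009-137867258 on the plus strand, the TNIP1 window at chr5:151081035-151081284 on the minus strand, and the CYLD window at chr16:50741836-50742085 on the plus strand.
TNFAIP3: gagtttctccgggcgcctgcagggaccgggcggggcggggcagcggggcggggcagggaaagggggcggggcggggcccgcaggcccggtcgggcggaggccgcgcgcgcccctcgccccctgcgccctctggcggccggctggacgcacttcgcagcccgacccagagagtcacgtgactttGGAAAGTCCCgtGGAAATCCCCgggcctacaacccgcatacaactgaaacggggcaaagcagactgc
TNIP1: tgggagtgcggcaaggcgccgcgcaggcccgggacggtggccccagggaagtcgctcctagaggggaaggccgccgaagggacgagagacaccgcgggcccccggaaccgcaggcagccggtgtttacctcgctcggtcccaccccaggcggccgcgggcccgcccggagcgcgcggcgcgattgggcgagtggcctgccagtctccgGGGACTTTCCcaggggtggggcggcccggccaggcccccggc
CYLD: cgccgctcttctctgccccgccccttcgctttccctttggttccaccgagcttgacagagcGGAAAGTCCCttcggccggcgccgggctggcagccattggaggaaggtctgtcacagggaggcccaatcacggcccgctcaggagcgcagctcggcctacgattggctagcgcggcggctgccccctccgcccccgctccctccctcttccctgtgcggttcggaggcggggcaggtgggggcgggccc

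The TNFAIP3 window held 2 matches, both read on the reverse strand, GGGACTTTCC at bases 67 to 58 and GGGGATTTCC at bases 55 to 46 before the start site. TNIP1 had 1 match, GGGACTTTCC on the forward strand at bases 42 to 33, and CYLD had GGGACTTTCC on the reverse strand at bases 189 to 180. The RefSeq table held 11 windows for the 7 members, and the other 8 windows, among them those of TNIP2, TAX1BP1, ITCH and RNF11, had none. The consensus matched on either strand in 9.96% of all 35116 windows in the table, and at least 2 times in 1.72%. The letters GGGACTTTCC, picked after these promoters had been seen, stood in 0.179% of windows. A match is a likeness of letters and no measurement of binding.

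The knockdown was checked first in its target. NFKBIA was at 28.6, 23.5, 27.4, 34.99 and 41.95 CPM in untreated replicates 1 to 5 and at 13.0, 11.2, 12.1, 12.0 and 12.4 CPM in the knockdown. At 1.5 h post-IR it was at 88.3, 76.3, 79.955, 78.8 and 87.0 CPM, and at 7 days at 30.4, 28.4, 32.4, 32.0 and 30.5 CPM. Every knockdown library was below every untreated one (log2 fold change -1.36, SE 0.109, adjusted p = 4.87e-09, edgeR quasi-likelihood test with Benjamini-Hochberg adjustment over all genes tested), which matches the labels. NFKBIA rose by 1.397 at 1.5 h (adjusted p = 3.61e-09) and was within the spread of the untreated libraries at 7 days (-0.02, adjusted p = 0.886), where the groups overlapped. Without untreated replicate 5 the values were -1.25 in the knockdown, 1.51 at 1.5 h and 0.09 at 7 days (adjusted p = 0.347), and with lane as a term in the fit the 7 days value was -0.54 (adjusted p = 0.0207). In the fit with lane, untreated cells were tied to the other groups by untreated replicate 5 alone, the highest untreated library at 41.95 CPM.

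Of the 7 members, TNFAIP3 had the widest movement: it rose 2.66-fold at 1.5 h, was 1.46-fold above untreated cells at 7 days, and was lower than in untreated cells in the knockdown. CYLD and RNF11 were higher at 1.5 h and higher again at 7 days. For RNF11 the second step was small (0.15) and did not pass on leaving out most single libraries. TNIP1 and TNIP2 differed from untreated cells at 7 days by smaller amounts and in opposite directions, and no comparison of TAX1BP1 or ITCH passed the test in this fit. A gene was called where its adjusted p was under 0.05 and its log2 fold change above 0.5 in size. At 1.5 h against untreated cells 1 of the 7 members was called, beside 3.66% of all genes tested, and 3 had an adjusted p under 0.05, beside 21.3%. At 7 days 2 of 7 were called and 5 of 7 passed on adjusted p, beside 31.1% and 64.2% of all genes, shares close to the background. In the knockdown 1 of 7 was called and 2 of 7 passed on adjusted p, beside 12.7% and 40.5%. Without untreated replicate 5 the calls were 1, 3 and 0 members, beside 3.28%, 30.6% and 11.9% of all genes. At a stricter threshold of 1 on the log2 scale the calls were 1 (TNFAIP3), 0 and 0 members, beside 0.6%, 12.2% and 3.5% of all genes. These 3 comparisons share the untreated libraries and are not independent of each other.

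**Figure D1:**
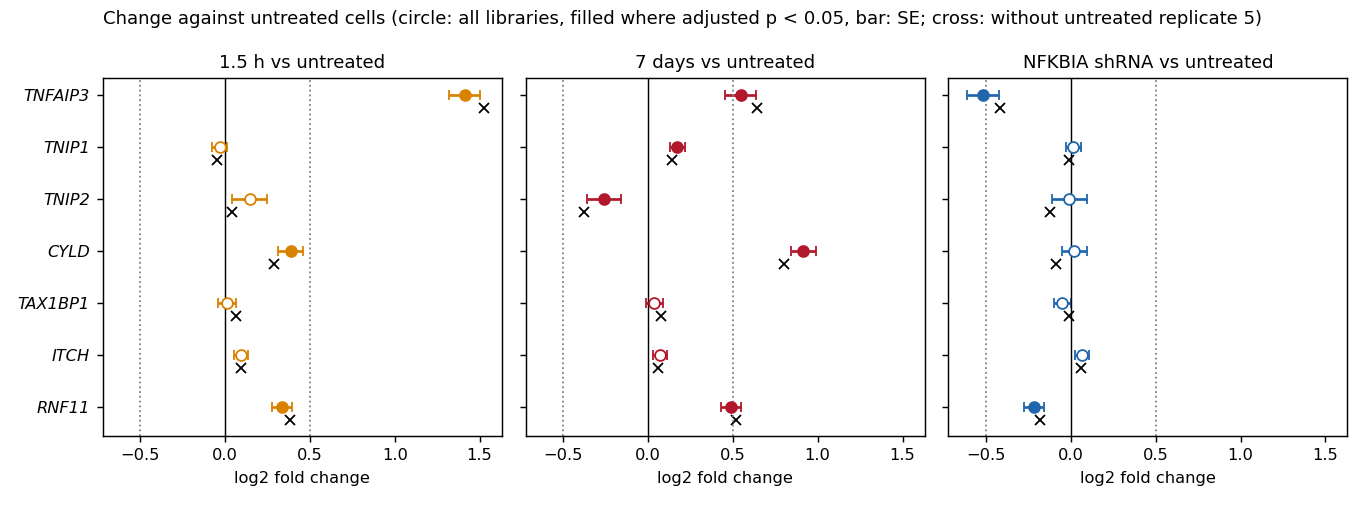
Log2 fold change (x axis) of each of the 7 members (y axis) at 1.5 h post-IR, at 7 days post-IR and in the NFKBIA shRNA group, each against untreated cells, with bars for the standard error, filled circles for adjusted p under 0.05, dotted lines at -0.5 and 0.5 and crosses for the fit without untreated replicate 5. TNFAIP3 at 1.5 h (1.41) stands furthest from 0, CYLD at 7 days is at 0.91, and the crosses lie on the same side of 0 as the filled circles.

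TNFAIP3, the gene of the ubiquitin-editing enzyme itself, was at 17.9, 16.6, 17.6, 16.3 and 24.97 CPM in untreated replicates 1 to 5, a mean of 18.7 ± 3.59 (SD, n = 5). At 1.5 h post-IR the libraries were at 48.5, 45.0, 48.8, 47.7 and 57.0 CPM, with a mean of 49.4 ± 4.53. All 5 lay above all untreated libraries, the highest of which was replicate 5. The difference was 1.41 on the log2 scale (SE 0.0925, edgeR adjusted p = 5e-10), and 1.52 without untreated replicate 5. Lane 3, which held 3 libraries of the 1.5 h group and untreated replicate 5, gave a difference of mean log2 CPM of 0.92, and the fit with lane as a term also 0.92 (adjusted p = 4.28e-06).

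At 7 days the TNFAIP3 libraries were at 25.04, 27.7, 30.2, 27.6 and 24.8 CPM, a mean of 27.1 ± 2.21 (SD, n = 5), below all libraries of 1.5 h (log2 fold change -0.87, edgeR adjusted p = 4.26e-08, and -0.985 within lane 4, which held 2 libraries of each time). Against untreated cells TNFAIP3 remained higher by 0.55 (SE 0.0928, adjusted p = 3.02e-05), but the groups overlapped at untreated replicate 5, and the exact two-sided permutation p was 0.0159. Without that library the difference was 0.64. It fell just below the fold threshold without untreated replicate 4 (0.48) and without the 7 days replicate 3 (0.49), both with adjusted p under 0.05. With lane as a term in the edgeR fit the difference turned to -0.07 (adjusted p = 0.722), and in that fit untreated replicate 5 was the only untreated library that shared a lane with another group.

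In the NFKBIA knockdown TNFAIP3 was at 13.0, 12.8, 13.2, 13.0 and 12.6 CPM, a mean of 13.0 ± 0.226 (SD, n = 5). The 5 values lay within a narrow range and below every untreated library. The log2 fold change against untreated cells was -0.52 (SE 0.0957, edgeR adjusted p = 0.000203), close to the threshold: it was -0.42 without untreated replicate 5 (adjusted p = 3.32e-05), -0.49 with upper-quartile scaling and -0.46 with library size alone, none of which would be called. With lane as a term it was -1.15 (adjusted p = 0.000184). No lane held both untreated and knockdown libraries, so that lane and knockdown could not be separated within a lane. The order of the TNFAIP3 levels was thus knockdown, untreated, 7 days and 1.5 h, and of the neighbours in this order only untreated and 7 days overlapped.

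**Figure D2:**
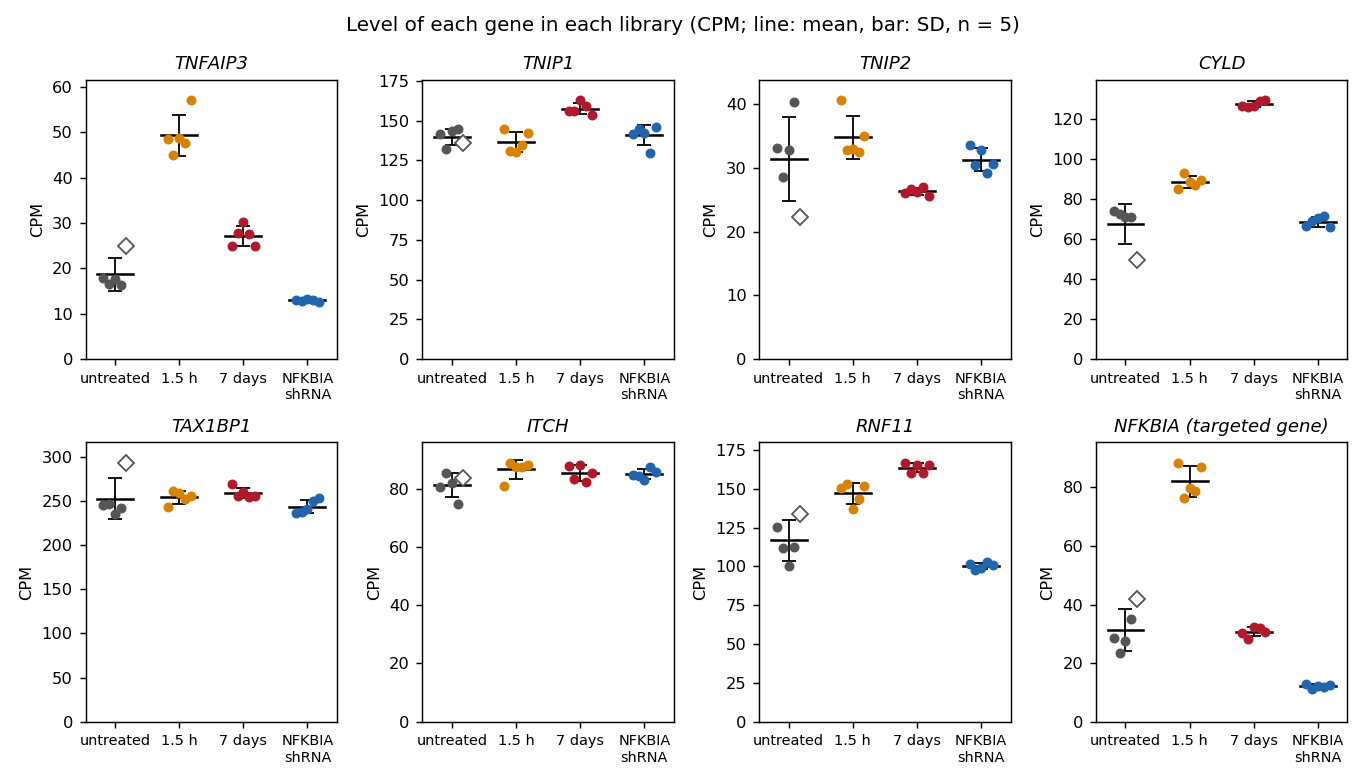
Level in CPM (y axis, from 0) of the 7 members and of NFKBIA in each library of the 4 groups (x axis), with a line for the mean, a bar for the SD (n = 5) and an open diamond for untreated replicate 5. TNFAIP3 is highest at 1.5 h (45.0 to 57.0 CPM), CYLD and RNF11 at 7 days (126.1 to 129.5 and 160.3 to 166.5 CPM), and the groups of TAX1BP1 and ITCH lie at like heights.

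The transcripts of the feedback inhibitors A20 and IκBα did not keep the same proportion to each other in all groups. The log2 ratio of TNFAIP3 to NFKBIA, taken within each library and so free of its depth, was -0.670, -0.503, -0.640, -1.10 and -0.747 in untreated cells and -0.864, -0.761, -0.713, -0.723 and -0.608 at 1.5 h. At 7 days it was -0.280, -0.0354, -0.103, -0.211 and -0.297. The group means were -0.732 ± 0.224, -0.734 ± 0.0925 and -0.185 ± 0.113 (SD, n = 5). The untreated and 1.5 h ratios overlapped throughout (difference -0.00136, exact permutation p = 1), and all ratios at 7 days lay above all ratios of the other two groups. The difference was 0.547 against untreated cells and 0.548 against 1.5 h (exact two-sided permutation p = 0.00794 for each, the smallest that 5 libraries against 5 allow, and 0.0119 after Benjamini-Hochberg adjustment over 3 comparisons). Within lane 4 the ratios were -0.723 and -0.608 at 1.5 h and -0.280 and -0.0354 at 7 days. No lane held untreated and 7 days libraries together. In the knockdown the ratio was 0.0935 ± 0.0796, and since NFKBIA was the target of the shRNA it was not tested.

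**Figure D3:**
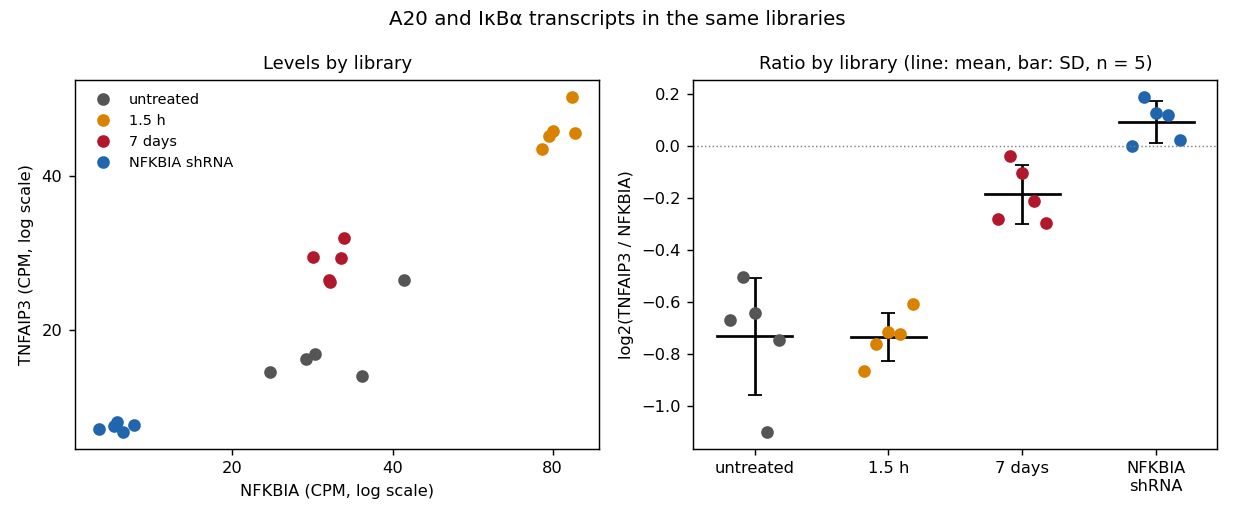
Left, TNFAIP3 against NFKBIA in each library (both axes in CPM on a log scale), with 1 colour per group; right, the log2 ratio of TNFAIP3 to NFKBIA by group with a line for the mean and a bar for the SD (n = 5). Untreated and 1.5 h libraries share a range of ratios (means of -0.732 and -0.734), and the 7 days libraries (mean -0.185) lie above both.

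TNIP1 and TNIP2 encode the A20-binding inhibitors of NF-κB, ubiquitin-binding adaptors that bring A20 to its substrates. TNIP1 was at 141.2, 132.4, 143.6, 144.4 and 136.0 CPM in untreated cells and at 144.5, 130.9, 130.5, 134.5 and 142.4 CPM at 1.5 h. These ranges overlapped, with a log2 difference of -0.03 (SE 0.0441, edgeR adjusted p = 0.674). At 7 days it was at 155.8, 155.8, 162.7, 158.9 and 153.8 CPM, above every library of the other groups. The rise was small, 0.17 against untreated cells (SE 0.0441, adjusted p = 0.00177) and 0.20 against 1.5 h (adjusted p = 0.000413), and it was 0.14 without untreated replicate 5 (adjusted p = 0.00492). In the knockdown TNIP1 was at 141.7, 144.5, 142.3, 129.8 and 145.7 CPM, a range that overlapped that of untreated cells (0.01, adjusted p = 0.837). With lane as a term the 7 days difference was of like size, 0.16, and did not pass the test (adjusted p = 0.204).

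TNIP2 was at 33.2, 28.6, 32.8, 40.3 and 22.3 CPM in untreated cells, the widest spread of the 7 members relative to the mean, with replicates 4 and 5 at its ends. It was at 40.6, 32.9, 33.0, 32.5 and 34.98 CPM at 1.5 h, at 26.1, 26.7, 26.2, 27.0 and 25.6 CPM at 7 days and at 33.6, 30.4, 32.8, 29.2 and 30.5 CPM in the knockdown. The 7 days libraries lay below all libraries of 1.5 h (log2 fold change -0.40, SE 0.102, edgeR adjusted p = 0.00176) and below all of the knockdown (-0.25 for the 7 days group against it, adjusted p = 0.0417). The difference from the knockdown did not pass with at least 10 counts required in every library (adjusted p = 0.0517), nor without the 7 days replicate 5 (0.0721) or the knockdown replicate 1 (0.0641) or 3 (0.0564). Against untreated cells TNIP2 fell by 0.26 at 7 days (adjusted p = 0.0322), with overlap at replicate 5. That difference was -0.37 without untreated replicate 5 (adjusted p = 0.000226), -0.18 without untreated replicate 4 (adjusted p = 0.0753), also above an adjusted p of 0.05 without untreated replicate 1 or 3 or the 7 days replicate 5, and 0.31 with lane as a term (adjusted p = 0.184). It also did not pass with only these 2 groups in the fit (adjusted p = 0.0753), with upper-quartile scaling (0.0522) or with library size alone (0.0852). The differences at 1.5 h (0.14, adjusted p = 0.343) and in the knockdown (-0.01, adjusted p = 0.959) did not pass the test. With lane as a term these 2 values were 0.67 (adjusted p = 0.00155) and 0.66 (adjusted p = 0.0402), and within lane 3 the difference at 1.5 h was 0.66.

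RNF11, a small RING finger protein of the A20 complex, was at 125.5, 111.9, 100.2, 112.3 and 134.0 CPM in untreated cells, a mean of 116.8 ± 13.2 (SD, n = 5). At 1.5 h it was at 150.4, 153.0, 136.9, 143.6 and 152.0 CPM, above all untreated libraries, with a log2 fold change of 0.33 (SE 0.0588, edgeR adjusted p = 0.00033). It was 0.38 without untreated replicate 5, and 0.13 both within lane 3 and with lane as a term, where it did not pass (adjusted p = 0.267). At 7 days the libraries were at 166.5, 160.3, 165.6, 160.3 and 165.2 CPM, above those of 1.5 h without overlap. The rise against untreated cells was 0.49 (SE 0.0589, adjusted p = 3.48e-07), just under the fold threshold, and it passed that threshold without untreated replicate 5 (0.52) or replicate 1 (0.51). With lane as a term it was 0.28 (adjusted p = 0.0663). The step from 1.5 h to 7 days was 0.15 (adjusted p = 0.0298, and 0.145 within lane 4), and its adjusted p rose above 0.05 on leaving out any 1 library of the 2 groups except the 1.5 h replicate 5, up to 0.156 without the 1.5 h replicate 3.

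In the NFKBIA knockdown RNF11 was at 101.5, 98.0, 98.7, 102.9 and 101.1 CPM. It fell by 0.22 on the log2 scale against untreated cells (SE 0.059, edgeR adjusted p = 0.00581), with overlap at the untreated replicate 3, and an exact permutation p of 0.0317. Without untreated replicate 5 the value was -0.18 (adjusted p = 0.00403), and with only these 2 groups in the fit it was -0.22 and did not pass (adjusted p = 0.0587). It was -0.41 with lane as a term (adjusted p = 0.0455). RNF11 thus had the order knockdown, untreated, 1.5 h and 7 days, and of the neighbours only knockdown and untreated overlapped.

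ITCH, a HECT-type ubiquitin ligase of the NEDD4 family, and TAX1BP1, an adaptor that binds both A20 and ubiquitin and also serves as an autophagy receptor, showed no difference that passed the test in any of the 6 comparisons as fitted over all groups with TMM scaling, and a few passed at other settings. ITCH was at 80.4, 85.3, 82.0, 74.7 and 83.6 CPM in untreated cells and at 80.9, 88.7, 87.4, 87.5 and 88.2 CPM at 1.5 h. It was at 87.8, 83.3, 88.1, 82.2 and 85.2 CPM at 7 days and at 84.5, 84.4, 82.9, 87.2 and 85.7 CPM in the knockdown. All groups overlapped, and the differences from untreated cells were 0.09 (SE 0.042, edgeR adjusted p = 0.13), 0.07 (SE 0.0421, adjusted p = 0.142) and 0.07 (SE 0.0421, adjusted p = 0.227). With library size alone as the scaling the ITCH differences at 7 days (0.12, adjusted p = 0.0222) and in the knockdown (0.12, adjusted p = 0.0257) passed. TAX1BP1 was at 245.0, 247.1, 234.8, 242.0 and 292.9 CPM in untreated cells, where replicate 5 stood far above the rest. At 1.5 h it was at 242.9, 261.3, 259.2, 252.04 and 255.8 CPM, at 7 days at 268.9, 255.3, 260.7, 254.0 and 256.0 CPM, and in the knockdown at 236.5, 237.4, 241.2, 249.6 and 253.2 CPM. The 7 days libraries lay just above those of the knockdown, with a difference of 0.09 that did not pass (adjusted p = 0.145) but did when these 2 groups alone were fitted (adjusted p = 0.00753). The differences of TAX1BP1 from untreated cells were 0.01 (SE 0.0509, adjusted p = 0.909), 0.04 (SE 0.0509, adjusted p = 0.532) and -0.05 (SE 0.0509, adjusted p = 0.45). Without untreated replicate 5 they were 0.06, 0.08 and -0.01, and with lane as a term the 1.5 h value was -0.20 (adjusted p = 0.014).

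CYLD is a deubiquitinase that cuts ubiquitin chains without A20 and is known as a tumour suppressor of skin appendages. It was at 74.0, 72.6, 71.0, 70.9 and 49.8 CPM in untreated cells, a mean of 67.6 ± 10.1 (SD, n = 5), with replicate 5 far below the other libraries. At 1.5 h it was at 85.2, 93.1, 88.4, 86.9 and 89.4 CPM, above all untreated libraries, a rise of 0.39 on the log2 scale (SE 0.0733, edgeR adjusted p = 0.000672). Without untreated replicate 5 the rise was 0.29 (adjusted p = 1.46e-06). Lane 3 alone gave 0.835, and the fit with lane as a term 0.84, and both set the 1.5 h libraries against untreated replicate 5 only.

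At 7 days CYLD was at 126.7, 126.1, 126.8, 129.3 and 129.5 CPM, a mean of 127.7 ± 1.60 (SD, n = 5), the narrowest group of any member relative to its mean. No library of another group reached this range. The rise was 0.91 against untreated cells (SE 0.0736, edgeR adjusted p = 7.51e-10), 0.80 without untreated replicate 5 and 1.36 with lane as a term (adjusted p = 1.62e-09). Against 1.5 h it was 0.53 (SE 0.0729, adjusted p = 2.39e-06), with 0.519 within lane 4. This last value lay near the fold threshold, falling to 0.49 without the 1.5 h replicate 1, and to just under 0.5 without the 1.5 h replicate 4 (0.4964) or the 7 days replicate 4 (0.4991). The knockdown libraries, at 66.5, 69.0, 70.8, 71.4 and 66.0 CPM, lay within the untreated range (log2 fold change 0.02, SE 0.0735, adjusted p = 0.842). Without untreated replicate 5 CYLD was lower in the knockdown by a small amount that passed the test (-0.09, adjusted p = 0.0418), and with lane as a term it was higher (0.41, adjusted p = 0.00769).

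The groups other than untreated cells were also compared with each other, in comparisons that do not use untreated replicate 5 other than through the shared estimate of spread. From 1.5 h to 7 days 2 of the 7 members were called, TNFAIP3 lower and CYLD higher, and 5 passed on adjusted p, beside 29.3% and 60.9% of all genes tested. Between the knockdown and 1.5 h 2 of 7 were called, TNFAIP3 (-1.93, edgeR adjusted p = 1.69e-12) and RNF11 (-0.55, adjusted p = 2.08e-07), both lower in the knockdown, and 3 passed on adjusted p with CYLD (-0.37, adjusted p = 0.000387), beside 14.1% and 41.7%. TNIP2 (-0.15, adjusted p = 0.245) passed there only with these 2 groups alone in the fit (adjusted p = 0.0364). Between 7 days and the knockdown, the 2 conditions that the study set side by side, 3 of 7 were called and 5 passed on adjusted p, beside 25.7% and 57.4%. All 3 calls were higher at 7 days: TNFAIP3 by 1.06 (SE 0.0948, adjusted p = 4.49e-09), CYLD by 0.89 (SE 0.0736, adjusted p = 1.34e-09) and RNF11 by 0.70 (SE 0.0591, adjusted p = 1.82e-09). At the threshold of 1 no member was called from 1.5 h to 7 days, beside 10.8% of all genes, and TNFAIP3 alone in the knockdown against 1.5 h and at 7 days against the knockdown, beside 4.22% and 10.2%. Lane 5, with 3 libraries of 7 days and 1 of the knockdown, gave 1.07, 0.949 and 0.689 for these 3 genes.

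Levels of different genes were compared per length, as CPM per kb of the gene width given in the deposited table. In untreated cells RNF11 was the highest at 37.4 ± 4.21 CPM per kb (SD, n = 5), followed by TAX1BP1 at 29.1 ± 2.67 and TNIP1 at 22.7 ± 0.842. ITCH at 12.2 ± 0.611 and TNIP2 at 11.7 ± 2.46 did not differ beyond their spread. CYLD at 5.22 ± 0.776 and TNFAIP3 at 3.72 ± 0.715 were the lowest, and NFKBIA was at 13.2 ± 3.05. In untreated replicate 5 the order of the lowest was the other way round, with TNFAIP3 at 4.97 and CYLD at 3.84 CPM per kb. The gene that moved most was thus the member with the lowest mean level per length in untreated cells. At 1.5 h TNFAIP3 reached 9.83 ± 0.901 CPM per kb, above CYLD at 6.84 ± 0.230. In these bulk libraries fewer cells with a transcript and less of it in each cell cannot be told apart.

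The members lie on 7 chromosomes. In GRCh38 with GENCODE 29, which is not the hg19 build that the submitters' processing notes name, TNFAIP3 spans chr6:137867188-137883312 and CYLD chr16:50742050-50801935 on the plus strand, TNIP1 chr5:151029945-151093577 and TNIP2 chr4:2741648-2756376 on the minus strand, and TAX1BP1 chr7:27739331-27844564, ITCH chr20:34363235-34511393 and RNF11 chr1:51236271-51273455 on the plus strand. Exons of TNFAIP3 share 95 bases with an antisense gene and those of CYLD 56 and 27 bases with 2 antisense genes. TAX1BP1 exons share 175 bases with an antisense gene and 415 bases with JAZF1 on the other strand, the latter a gene whose own row held 393 to 779 counts where TAX1BP1 held 6157 to 9560. The strand setting of the counting is not given in the sources used here, so reads in these shared bases could stem from either gene.

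Among the 20 libraries the log2 CPM of TNFAIP3 ran most like that of PPM1D (Pearson r = 0.970), ATF3 (0.967), BHLHE40 (0.963), IER3 (0.962) and SPTY2D1 (0.958), out of all genes tested. ATF3, a stress-induced transcription factor, had means of 17.6, 107.1, 33.8 and 11.5 CPM in untreated, 1.5 h, 7 days and knockdown libraries, and IER3, an early response gene, 94.3, 243.1, 109.9 and 66.3 CPM. Both had the order of groups seen for TNFAIP3. For CYLD the most alike were DRAM1 (0.991) and SLC52A1 (0.975), and DRAM1, a lysosomal membrane protein gene, had means of 27.8, 38.8, 57.7 and 27.7 CPM. For RNF11 they were BIRC3 (0.966), which encodes the ubiquitin ligase cIAP2, and PLK2 (0.962). For the members with little movement the highest values were lower: CDR2L (0.900) and TMEM158 (0.899) for TNIP1, HNRNPAB (0.952) and ENY2 (0.951) for TNIP2, TIMM10B (0.918) and SDAD1 (0.901) for TAX1BP1, and RICTOR (0.911) and PTPN4 (0.899) for ITCH. Between members r was 0.789 for CYLD and RNF11, 0.784 for TNFAIP3 and RNF11, and 0.457 for TNFAIP3 and CYLD. These correlations are descriptions over 4 groups of 5 libraries that share lanes and differ in depth.

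The wider pathway was read from 7 lists of genes, of which 64 genes were tested. Against untreated cells 10 of them (15.6%) were called at 1.5 h, 24 (37.5%) at 7 days and 9 (14.1%) in the knockdown, beside the 3.66%, 31.1% and 12.7% of all genes given above, so that the shares at 7 days and in the knockdown lay near the background. The counts without untreated replicate 5 were 11, 21 and 7 (17.2%, 32.8% and 10.9%): REL at 1.5 h and HECW1 at 7 days came to be called, and NFKB2 (0.49), TRADD (0.42), RIPK2 (0.4968) and UBE2L3 at 7 days and SMURF2 and CXCL8 in the knockdown no longer were. REL, HECW1, NFKB2, TRADD and RIPK2 are named for this change, after their values were seen. In the fit with lane as a term, where untreated replicate 5 alone ties untreated cells to the other groups, 21, 36 and 21 genes were called, among them 5 of the 10, 20 of the 24 and 6 of the 9. The median log2 fold change over all genes tested was -0.03, 0.01 and -0.01 in these comparisons, and over the 7 members 0.14, 0.17 and -0.01. Linear ubiquitin chains are built by the complex of RNF31, RBCK1 and SHARPIN and cut by OTULIN, and SPATA2 links CYLD to that complex. Of these genes with UBE2L3, 6 in all, none was called at 1.5 h (3 passed on adjusted p, median -0.14) or in the knockdown (median -0.02), where only UBE2L3 passed (adjusted p = 0.0441, and 0.0531 without untreated replicate 5). At 7 days UBE2L3, an E2 enzyme used by the complex, was called lower (-0.63, edgeR adjusted p = 0.000599). Its highest untreated library was replicate 5, without which the difference was -0.40 (adjusted p = 9e-07), below the fold threshold in size, and with lane as a term it was -1.41. OTULIN rose by 0.27 at 1.5 h (adjusted p = 0.0196) and 0.28 at 7 days (adjusted p = 0.00389) without reaching the fold threshold (0.18 at both times without untreated replicate 5), and SPATA2, the partner of CYLD, was at 0.04, 0.00 and -0.04, none of which passed the test. At 1.5 h OTULIN did not pass with only the groups compared in the fit (adjusted p = 0.121). With lane as a term the genes called in this list were OTULIN (0.66) and UBE2L3 (-1.14) at 1.5 h, OTULIN (0.66), RNF31 (0.58) and UBE2L3 at 7 days, and RNF31 (0.54) and UBE2L3 (-1.14) in the knockdown, and SPATA2 passed on adjusted p as lower at 1.5 h and 7 days (-0.22, adjusted p = 0.0364, and -0.29, adjusted p = 0.0313).

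The list labelled A20 relatives held deubiquitinases related to A20 and TNIP3, the third A20-binding inhibitor, which is not of the A20 family. Of its 4 genes with values none was called at 1.5 h, 3 at 7 days (2 higher and 1 lower) and 1 in the knockdown. The medians were 0.09, 0.12 and -0.28. A list of 4 genes is short against shares of 3.66%, 31.1% and 12.7% of all genes, and the counts of the other lists stand beside the same shares. TNIP3 was a scarce transcript with 13 to 70 counts per library. It was at 0.65 to 0.90 CPM in untreated cells and at 1.67 to 2.11 CPM at 7 days, without overlap, a rise of 1.36 (SE 0.159, edgeR adjusted p = 2.04e-07). Its values at 1.5 h (0.03, adjusted p = 0.934) and in the knockdown (-0.37, adjusted p = 0.134) did not pass. VCPIP1, a deubiquitinase, rose by 0.57 at 7 days (adjusted p = 4.22e-07), and by 0.48 without untreated replicate 4, below the fold threshold. OTUD7A, a deubiquitinase with an A20-type zinc finger at 13 to 68 counts per library, was lower at 7 days (-1.26, adjusted p = 3.63e-05) and in the knockdown (-1.37, adjusted p = 5.04e-05), where it did not pass with lane as a term (-1.73, adjusted p = 0.0905).

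Upstream, 17 genes of IKK signalling had medians of 0.07, 0.03 and 0.07, with 1, 5 and 1 called at 1.5 h, at 7 days and in the knockdown. BIRC3, which adds ubiquitin chains in this pathway, was at 27.0 to 38.4 CPM in untreated cells, 86.1 to 101.3 at 1.5 h, 95.2 to 107.1 at 7 days and 17.9 to 22.2 in the knockdown. It rose by 1.497 (edgeR adjusted p = 4.04e-11) and 1.66 (adjusted p = 3.45e-13) and fell by 0.72 in the knockdown (adjusted p = 8.45e-07). TRAF1 (2.08, adjusted p = 9.15e-14) and IKBKB (0.65, adjusted p = 7.75e-07), a kinase of IKK itself, also rose at 7 days. The IKBKB difference was 0.53 without untreated replicate 5, just above the fold threshold, and 1.14 with lane as a term. In the list of 11 IκB and NF-κB genes, with medians of 0.205, 0.18 and -0.32, 3, 4 and 2 were called. Beside NFKBIA at 1.5 h these were NFKBIE (0.84, adjusted p = 8.27e-08) and NFKBIZ (0.53, adjusted p = 0.000285), the latter below the fold threshold without untreated replicate 1 (0.4997) or 4 (0.446) and not passing with lane as a term (0.10, adjusted p = 0.493). At 7 days NFKBIZ rose by 1.19 (adjusted p = 4.11e-10), RELB by 0.66 (adjusted p = 4.86e-05) and NFKBIE by 0.56 (adjusted p = 1.76e-06), and in the knockdown RELB fell by 0.51 (adjusted p = 0.00182). Without untreated replicate 5 the 7 days values were 1.27 for NFKBIZ, and 0.51 for RELB and for NFKBIE, the latter 2 just above the fold threshold. The 7 days values with lane as a term were 0.63 for NFKBIZ and 1.37 for RELB, and RELB in the knockdown turned to 0.22 (adjusted p = 0.492). RELB in the knockdown lay at the threshold: it was -0.65 without untreated replicate 5, and was not called without untreated replicate 1 (-0.48) or 4 (-0.43) or the knockdown replicate 2 (-0.4993) or 3 (-0.49), with upper-quartile scaling (-0.49), with library size alone (-0.46) or with the replicate block (-0.4963).

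Of 14 cytokine and adhesion genes known as NF-κB targets 11 could be tested, with 6, 7 and 4 called and medians of 0.64, 1.70 and -0.04. At 1.5 h all 6 were higher, led by TNF (1.92, SE 0.34, edgeR adjusted p = 0.000352), which held 38 counts or fewer in every library, CXCL8 (1.87, adjusted p = 5.44e-09) and CSF2 (1.46, adjusted p = 0.00311). Of these 6 genes 4 did not pass with lane as a term: TNF (1.06, adjusted p = 0.159), CSF2 (1.499, adjusted p = 0.11), CXCL3 (0.87, adjusted p = 0.16) and CCL2 (0.31, adjusted p = 0.155). At 7 days all 7 were higher, and IL6, IL1B and CSF2 did not pass with lane as a term (adjusted p = 0.172, 0.0612 and 0.323). CXCL8, the gene of interleukin-8, rose from a mean of 4.39 CPM in untreated cells to 55.9 CPM (3.65, adjusted p = 1.05e-14), and IL1A from 0.498 to 9.71 CPM (4.23, adjusted p = 6.88e-14). IL1B had 0 or 1 count in each untreated library and 10 to 26 counts at 7 days, and no fold is given. In the knockdown the calls went both ways: IL1A (2.08, adjusted p = 2.01e-07) and CXCL8 (0.60, adjusted p = 0.003) were higher, and CCL2 (-1.19, adjusted p = 4.42e-08) and ICAM1 (-0.64, adjusted p = 0.0128) lower. The CXCL8 groups overlapped, and without untreated replicate 5, the lowest untreated library, its difference was 0.48 (adjusted p = 0.0071), below the fold threshold, and it did not pass with lane as a term (0.74, adjusted p = 0.118). ICAM1 did not pass with only these 2 groups in the fit (adjusted p = 0.0569). CCL2 was at -1.79 and ICAM1 at -1.55 with lane as a term.

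Among 10 genes of the NEDD4 family, to which ITCH belongs, and its adaptors, 0, 2 and 1 were called, with medians of 0.01, 0.20 and 0.05. NEDD4L rose (0.70, edgeR adjusted p = 1.39e-05) and WWP2 fell (-0.60, adjusted p = 9.59e-09) at 7 days, and SMURF2 fell in the knockdown (-0.51, adjusted p = 8.9e-06). The SMURF2 value was -0.45 without untreated replicate 5 (adjusted p = 7.58e-07), its highest untreated library, and -0.49 to -0.4987 without untreated replicate 2 or the knockdown replicate 3 or 5, all below the fold threshold in size, as it was with upper-quartile scaling (-0.48) or library size alone (-0.44). NEDD4L did not pass with lane as a term (0.11, adjusted p = 0.539), and SMURF2 was at -0.79 there. Of 5 other selective autophagy receptors, the class to which TAX1BP1 belongs, 0, 2 and 0 were called, with medians of -0.04, 0.36 and 0.21. SQSTM1, the gene of p62, rose from a mean of 548.3 to 1282 CPM at 7 days (1.23, adjusted p = 2.5e-11) and CALCOCO1 rose by 0.83 (adjusted p = 1.53e-11), where TAX1BP1 was at 0.04.

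**Figure D4:**
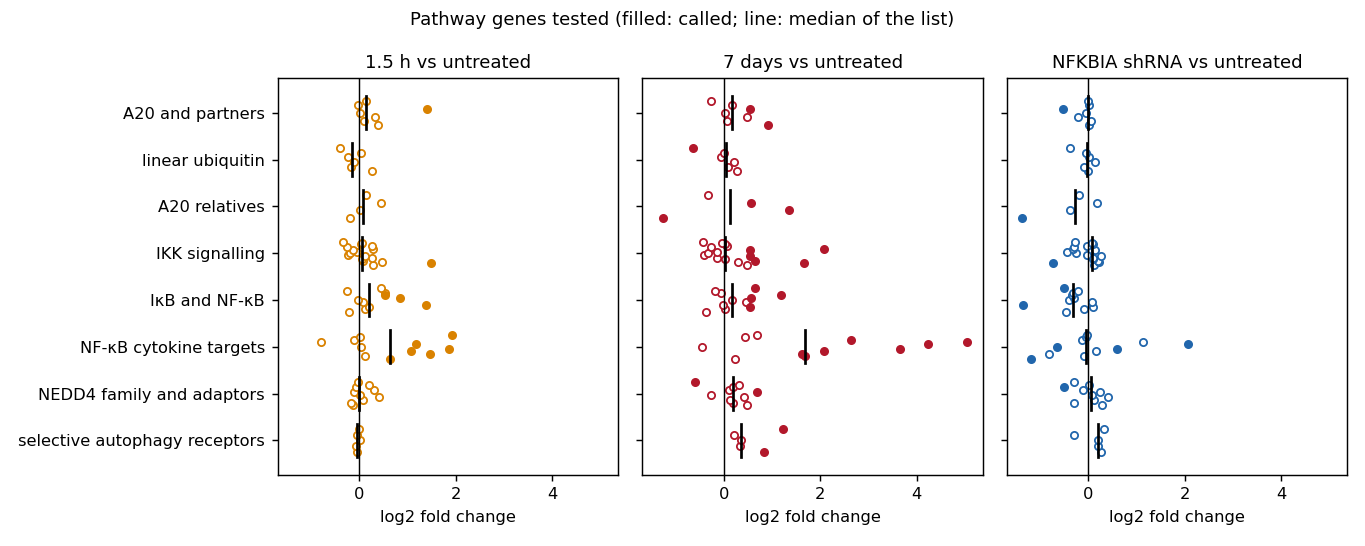
Log2 fold change (x axis) of each gene tested in the 7 members and 7 pathway lists (rows) at 1.5 h, at 7 days and in the NFKBIA shRNA group, each against untreated cells, with filled points for called genes and a black line for the median of each list. Of the members 1, 2 and 1 are called, the cytokine targets spread furthest to the right at 7 days (median 1.70), and the point furthest right there is IL1B, whose fold rests on 0 or 1 untreated counts.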

How the data were processed

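Total RNA of U2-OS cells went into stranded mRNA libraries, which were read from 1 end (Illumina HiSeq). The submitters' processing notes name STAR 2.4.2a, Trimmomatic, bcl2fastq and hg19. The counting tool, annotation and strand setting are not given in the sources used here. The authors deposited raw counts per gene, as whole numbers without normalization, for 20314 genes, 1679 of them without a symbol, and every column of counts was used. Groups came from the labels. The members and all lists were chosen with earlier results of these data known.

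Counts were tested in R 4.3.3 with edgeR 4.0.16 (filterByExpr with a minimum count of 10, TMM, quasi-likelihood test), with all 20 libraries in 1 model without covariates. P values were adjusted by Benjamini-Hochberg over 14992 genes, and a gene was called at adjusted p under 0.05 and a log2 fold change above 0.5 in size. Standard errors came from the F statistic. CPM used TMM library sizes, and log2 CPM a prior count of 2. Exact two-sided permutation tests compared single values, with 0.00794 the smallest p for 5 against 5. The test was checked on simulated counts. Beside members and NFKBIA, the genes named were OTULIN, SPATA2 and TNIP3, the 3 called genes of largest change per list and comparison, and the 5 genes most alike TNFAIP3 and 2 for each other member. CXCL8 in the knockdown, and genes named because a call changed, were named after their values were seen. OTUD7B, IKBKG and PECAM1 were not analysed here. Same-numbered libraries deviated together with r of -0.254 to 0.123, so that replicate numbers did not pair the libraries, and the counts of all pairs within a group differed by more than sampling noise. Promoters came from RefSeq (GRCh38.p14) and loci from GENCODE 29. Alternatives were other scalings (RLE, upper quartile, library size alone), filters, thresholds, DESeq2 1.42.0, lane or replicate number in the fit, only the groups compared, a prior count of 0.5, and leaving out each library.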

Additional observations from a re-analysis of the deposited data

Results flagged for a closer look

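In 36 sets of 5 values (the 7 members, NFKBIA and the ratio of TNFAIP3 to NFKBIA, each in 4 groups), 5 values stood further from the rest of their group than Dixon's 95% limit allows, where chance alone gives about 1 in 20 such sets. Of these, 3 belonged to untreated replicate 5, the smallest library: TNFAIP3 at 24.97 CPM (the other untreated libraries at 16.3 to 17.9), CYLD at 49.8 CPM (the others at 70.9 to 74.0) and TAX1BP1 at 292.9 CPM (the others at 234.8 to 247.1). TNFAIP3 and TAX1BP1 were high and CYLD low in that library. The remaining values were TNIP1 at 129.8 CPM in the knockdown replicate 4 (the others at 141.7 to 145.7) and ITCH at 80.9 CPM in the 1.5 h replicate 1 (the others at 87.4 to 88.7). The cause of these deviations was not tested.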

How the results depend on the processing

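Of 798 values of the members under alternatives with a test, 719 kept their direction and their side of an adjusted p of 0.05. Another 41 changed sign without passing in either fit. With the sign kept, 27 no longer passed and 6 came to pass. The other 5 changed sign and passed in only 1 of the 2 fits. Of the changes in passing, 11 came with lane as a term, where untreated replicate 5 alone tied untreated cells to the other groups. In that fit TAX1BP1 at 1.5 h was -0.20 (adjusted p = 0.014), TNFAIP3 at 7 days -0.066, and TNIP2 0.31 at 7 days and 0.66 in the knockdown, the calls against untreated cells were 3, 1 and 2 members at 1.5 h, at 7 days and in the knockdown, and 21 pathway genes each were called at 1.5 h and in the knockdown. The count of all genes called with lane as a term was 3820, 6188 and 4088, against 548, 4657 and 1906 without it. No member was called in the knockdown with upper-quartile scaling, with library size alone (0 in each, 1 as reported) or at a log2 fold change over 1 (0). At that threshold 0 members were called at 7 days against untreated cells, 0 from 1.5 h to 7 days, 1 in the knockdown against 1.5 h and 1 at 7 days against the knockdown. On adjusted p alone the counts were 3, 5 and 2 against untreated cells, 5 from 1.5 h to 7 days and 5 at 7 days against the knockdown. Without the filter on low counts 1 member was called from 1.5 h to 7 days, since CYLD was at 0.4979. Leaving out 1 library gave 1 to 3 calls at 7 days, 0 to 1 in the knockdown and 1 to 2 from 1.5 h to 7 days, and CYLD in the knockdown ranged from -0.086, without untreated replicate 5, to 0.057. The replicate block changed no member's call in the edgeR fits and 1 pathway call against untreated cells, that of RELB in the knockdown, with 496, 4628 and 1849 genes called. For the ratio of TNFAIP3 to NFKBIA at 7 days, pairing by replicate number left 0.547 against untreated cells and 0.548 against 1.5 h with an exact permutation p of 0.0625, the smallest that 5 pairs allow. Across the alternatives that ratio difference against untreated cells was 0.45 to 0.60. The cause of these changes was not tested. Leaving out untreated replicate 5 ended the calls of 4 pathway genes at 7 days and 2 in the knockdown. TNIP3, OTUD7A and TNF rest on few counts, which limits the precision of their folds.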
